A study of Brachypodium distachyon with 89 samples.

Results

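The comparison described here is that of 2 ecotypes of the grass Brachypodium distachyon, Bd21 and Bd21-3, in plants that were left undisturbed in normal growth (NG). It holds 29 of the 89 libraries of the series, 15 of Bd21 and 14 of Bd21-3, which are all NG libraries except 1. Plants were 14 days old and grew under 16 h of light and 8 h of dark at 150 µE per square metre and second. Aboveground tissue was collected at 5 time points, ZT0 and ZT24 at dawn, ZT8 in the light, ZT16 at dusk and ZT20 in the dark, where ZT counts the hours since lights on of the sampling day. Each group of 1 ecotype at 1 ZT had 3 libraries, each from a pool of 5 plants, except Bd21-3 at ZT8 with 2. Neither ecotype carried a transgene or received a treatment in NG, and the study used the same ecotypes in low light (LL) and under submergence (S). All 24467 genes of the table were taken, of which 24103 passed a filter of at least 1 CPM in 3 libraries and were tested.

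Bd21 and Bd21-3 are inbred lines, and Bd21 is the line whose genome serves as the reference of the species. Inbred lines of 1 plant species often differ in the families of genes that detect pathogens. NB-ARC proteins are receptors inside the cell that respond to pathogen products, and receptor-like kinases perceive signals at the cell surface. Genes of both families often stand in tandem arrays of similar copies, in which lines can differ in sequence, number and expression. Reads of both ecotypes were aligned to the Bd21 genome, so a low value in Bd21-3 can be few transcripts or reads that failed to align, and these cannot be told apart here. In pooled tissue, fewer cells of a type and less RNA per cell cannot be told apart either.

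Values are CPM, read counts scaled to library size, as deposited, and a library's value rests on 6347119 to 11114227 reads in Bd21 (median 8941359) and 7909595 to 14421211 in Bd21-3 (median 9225047.5). A difference is given as log2FC, the log2(CPM + 1) of Bd21 minus that of Bd21-3, averaged over the 5 ZTs unless a ZT is named. Genes were called DEGs where log2FC reached 1.5 in either direction, the limma p adjusted by Benjamini-Hochberg was under 5e-06 and 1 ecotype or both averaged 15 CPM or more. On this scale the change of genes with few reads is understated. For gene lists and markers, the number at an unadjusted limma p under 0.05 is also given. The share of all tested genes at that limit in the average was not counted, so these numbers have no background beside them. Gene names were taken from the best Arabidopsis match, so close paralogs can carry 1 name, and the reads they share may be split between them.

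Some libraries stood apart. The library left out, replicate 3 of Bd21-3 in NG at ZT8, held transcripts of genes otherwise high in Bd21 or in S. There, 41 genes that LL libraries of Bd21-3 lacked summed to 19.8% of their level in Bd21, against 0.0680% to 0.662% in the other 14 NG libraries of Bd21-3. In the same library 14 genes of submergence stood at 13.5% of their submerged level, against 0.0805% to 0.594% in the other 29, and ADH1, the alcohol dehydrogenase of fermentation, was at 389 CPM, against 1.61 to 15.4 CPM. Among the Bd21 libraries, 5 of 15 (replicate 2 at ZT0, replicate 1 at ZT8 and all 3 at ZT24) held 10.4 to 26.4 CPM of Bradi5g04650, a gene at or under 0.244 CPM in the other 10 and at or under 0.128 CPM in Bd21-3. Values without these 5 libraries are averages over 4 ZTs, without ZT24, and are given beside the same average with all libraries where they moved most. The cause of the split was not tested. In addition, replicate 2 of Bd21 at ZT16 held 5618 CPM of plastid-encoded and 130 CPM of mitochondrion-encoded genes, against at most 996 and 42.8 CPM in the other NG libraries. Within each ZT, libraries of the same ecotype correlated across genes at 0.972 to 0.993 and libraries of different ecotypes at 0.931 to 0.972, and at every ZT the lowest value within an ecotype lay above the highest between them. Markers of green leaf summed to 17492 to 34248 CPM in Bd21 and 17961 to 44875 CPM in Bd21-3, and those of roots to 43.1 to 76.5 CPM in Bd21 and 51.4 to 98.5 CPM in Bd21-3. None of the 49 markers of green leaf, guard cells, xylem and phloem, roots, meristem and flower or senescent leaf was at 0 in all NG libraries, and limma and edgeR called 0 of them, with 15 at an unadjusted limma p under 0.05. Of these 15, 7 were among the 8 markers of meristem and flower, which summed to 32.1 to 52.6 CPM in Bd21 and 26.3 to 44.0 CPM in Bd21-3.

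Few genes met the limits of a call between the ecotypes, and most of these stood higher in Bd21. Differences with a log2FC short of 1.5 in either direction are not in these counts. Averaged over the day, 153 of 24103 genes were called (0.635%), of which 110 (0.456%) were higher and 43 (0.178%) lower in Bd21. The median log2FC over all tested genes was -0.01, so the scale as a whole was centred near 0. Among the 110 higher genes the median log2FC was 3.34 (1.51 to 7.41), and 47 of them averaged under 1 CPM in Bd21-3. Among the 43 lower genes the median was -2.49, the smallest change was a log2FC that fell by 1.55 and the largest one that fell by 5.61, and 8 averaged under 1 CPM in Bd21. In 103 of the 110 higher genes every Bd21 library lay above every Bd21-3 library, and in 36 of the 43 lower genes every Bd21 library lay below. These counts describe genes that were called for a large difference in the same libraries. Without the 5 Bd21 libraries that held Bradi5g04650, no Bd21 library is left at ZT24, and over the other 4 ZTs 121 genes were higher and 48 lower, against 118 and 47 over the same 4 ZTs with all libraries. Of the 153 genes, 149 were called again in either case.

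**Figure D1:**
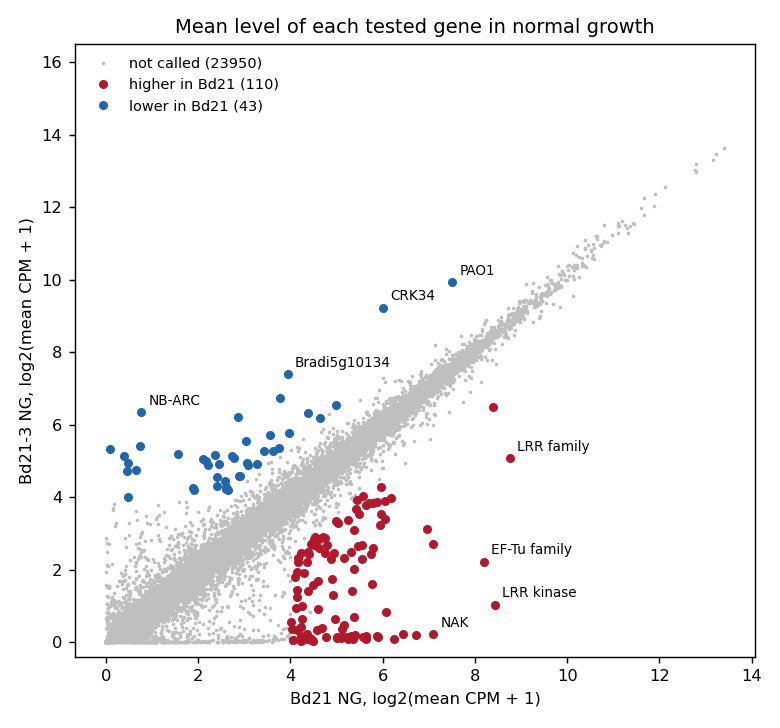
Mean level of each tested gene in NG, as log2(mean CPM + 1), in Bd21 on the x axis and Bd21-3 on the y axis; each point is a gene, with the 110 genes called higher and the 43 called lower in Bd21 coloured. Most genes lie on the diagonal, and 47 of the genes called higher lie along the bottom with a mean under 1 CPM in Bd21-3.

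Receptor-like kinases held the largest difference of the comparison. Bradi3g48790, matched to a leucine-rich repeat (LRR) protein kinase, had 224, 356 and 537 CPM as the lowest, median and highest value in Bd21 and 0.210, 0.882 and 3.42 CPM in Bd21-3. Every Bd21 library thus lay far above every Bd21-3 library, with a log2FC of 7.41 (standard error, SE, 0.165, adjusted p = 9.47e-47 by limma). Its neighbour Bradi3g48760, of the same description, had 34.5, 81.3 and 155 CPM in Bd21 and 0, 0.0925 and 0.571 CPM in Bd21-3, with a log2FC of 6.10. Next to them in gene order stood Bradi3g48800, an LRR family gene without a kinase in its description, with 299, 445 and 504 CPM in Bd21 and 10.1, 24.9 and 61.5 CPM in Bd21-3. This was the called gene with the most CPM in Bd21 on average (430), and its log2FC of 3.89 (SE 0.144, adjusted p = 3.75e-34 by limma) was again seen with no overlap of libraries.

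Cysteine-rich receptor-like kinases (CRKs) have an extracellular part with conserved cysteines and often respond to pathogens and oxidative stress. CRK41 (Bradi4g09872) had 22.6, 53.3 and 100 CPM in Bd21 and 0, 0.112 and 0.456 CPM in Bd21-3, a log2FC of 5.61 (limma adjusted p = 6.89e-46). CRK34 (Bradi4g24302) stood on the other side, with 2.79, 6.83 and 264 CPM in Bd21 and 358, 658 and 852 CPM in Bd21-3, a log2FC of -4.94 (SE 0.463, adjusted p = 3.77e-14 by limma). Its values in Bd21 fell into the groups described above, with 148 to 264 CPM in the 5 libraries that held Bradi5g04650 and 2.79 to 10.6 CPM in the other 10. All of them lay below every Bd21-3 library, and over the 4 ZTs without ZT24 the log2FC was -5.66 with all libraries and -6.47 without the 5. Among single ZTs, CRK34 was called at ZT20 alone. CRK6 (Bradi4g10560) and CRK19 (Bradi4g10590), which were named after their values were seen, lie near each other on chromosome 4 and differed in opposite directions. CRK6 had 21.2, 41.9 and 52.8 CPM in Bd21 and 2.83, 4.595 and 6.12 CPM in Bd21-3 (log2FC 2.81). CRK19 had 4.31, 6.29 and 11.5 CPM in Bd21 and 14.5, 23.8 and 31.4 CPM in Bd21-3 (log2FC -1.69). In neither gene did the libraries of the ecotypes overlap.

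Lectin receptor kinases bind sugars or related molecules outside the cell. A pair matched to concanavalin A-like lectin kinases were lower in Bd21. Bradi4g02201 had 1.81, 2.95 and 8.497 CPM in Bd21 and 18.4, 26.7 and 62.1 CPM in Bd21-3 (log2FC -2.79, limma adjusted p = 7.73e-26), and Bradi4g02192 had 3.97, 6.84 and 13.6 CPM in Bd21 and 35.3, 44.6 and 70.9 CPM in Bd21-3 (log2FC -2.55, limma adjusted p = 2.81e-29). Both were called at all 5 ZTs. In total 5 of 460 tested receptor-like kinases were higher and 4 lower in Bd21 (1.96% called, against 0.635% of all genes), and the median log2FC of the list was 0.00. NAK (Bradi4g28188), a cytoplasmic protein kinase outside that list, had 95.4, 125 and 198 CPM in Bd21 and 0, 0.124 and 0.569 CPM in Bd21-3, with a log2FC of 6.85 (SE 0.107, adjusted p = 1.44e-55 by limma). Its libraries formed groups as far apart as those of the LRR kinases.

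NB-ARC receptors were the list with the most calls. Of 268 tested members, 16 were higher and 2 lower in Bd21 (6.72%, against 0.635% of all genes). The median log2FC of the list was 0.08, and 136 members had an unadjusted limma p under 0.05, a number without a background here. The 16 higher genes had log2FC of 1.51 to 4.84, 7 of them were called at all 5 ZTs, and 7 lie on chromosome 4 and 5 on chromosome 2. Bradi4g09587, matched to RPM1, a receptor that in Arabidopsis responds to bacterial effectors, had 19.3, 32.8 and 41.9 CPM in Bd21 and 0, 0 and 0.342 CPM in Bd21-3. Its log2FC was 4.84 (SE 0.0924, adjusted p = 1.22e-50 by limma), with no overlap. Bradi2g39537, also matched to RPM1, was the only gene with at most 1 read in every NG library of Bd21-3 that averaged 15 CPM or more in Bd21. It had 2879 reads over the 15 Bd21 libraries and 2 reads over the 14 Bd21-3 libraries. Against a floor of 3 reads per library, or 0.348 CPM, its mean of 21.4 CPM in Bd21 was at least 61.3-fold higher. In LL and S libraries of Bd21-3 it had 12 reads in all.

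The pair of NB-ARC genes lower in Bd21 also held through the day. Bradi2g39648, another gene matched to RPM1, had 0.117, 0.644 and 1.32 CPM in Bd21 and 64.1, 79.1 and 103 CPM in Bd21-3, the largest lower log2FC of all called genes at -5.61 (SE 0.131, adjusted p = 1.13e-45 by limma). Bradi1g01407, the other one and named after its values were seen, had 5.37, 8.68 and 17.1 CPM in Bd21 and 32.5, 37.3 and 47.3 CPM in Bd21-3 (log2FC -1.91). Further members, again chosen after their values were seen, show the range of the list. Bradi2g39247 had 46.8, 54.5 and 61.7 CPM in Bd21 and 3.88, 4.55 and 8.42 CPM in Bd21-3 (log2FC 3.19), Bradi3g58951 had 50.6, 58.6 and 73.7 CPM in Bd21 and 6.48, 8.45 and 10.4 CPM in Bd21-3 (log2FC 2.70), and Bradi4g10030 had 10.5, 22.4 and 35.3 CPM in Bd21 and 0, 0.236 and 0.571 CPM in Bd21-3 (log2FC 4.19). None of these overlapped between ecotypes. The smallest called difference, that of Bradi2g38982 at 1.51, was not called in LL or in S.

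**Figure D2:**
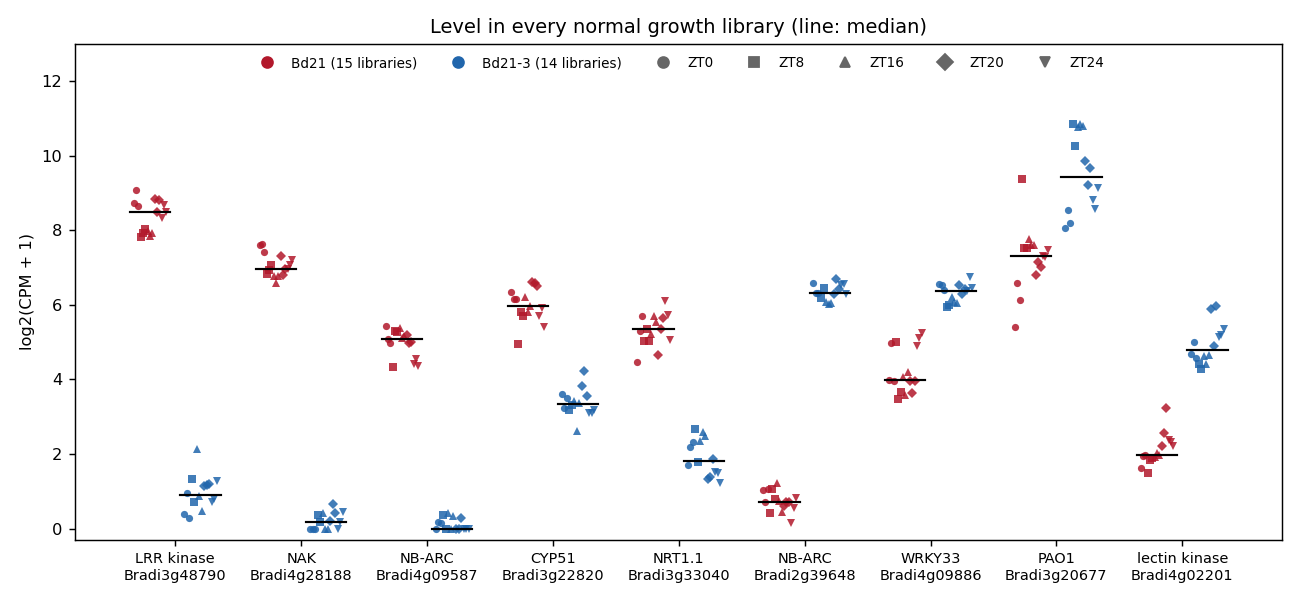
Level of selected called genes in every NG library, as log2(CPM + 1) on the y axis, with the genes on the x axis, the 15 Bd21 libraries left of the 14 Bd21-3 libraries for each gene, 1 marker shape per ZT and a line at the median. Bradi3g48790 lies at 224 to 537 CPM in Bd21 and at or under 3.42 CPM in Bd21-3. PAO1 overlaps, with 41.8 to 661 CPM in Bd21 and 264 to 1857 CPM in Bd21-3.

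Defense signaling downstream of such receptors often passes through WRKY transcription factors. WRKY33 (Bradi4g09886), which in Arabidopsis regulates defense against fungi, had 10.03, 14.8 and 36.9 CPM in Bd21 and 60.6, 82.1 and 106 CPM in Bd21-3. Every Bd21 library lay below every Bd21-3 library, with a log2FC of -2.06 (SE 0.149, adjusted p = 6.47e-19 by limma). The gene lies within a stretch of 4 tested genes that begins with CRK41, which differed in the opposite direction. Bradi3g60950, a RING/U-box protein of a family of ubiquitin ligases, had 0.535, 1.95 and 15.7 CPM in Bd21 and 14.3, 25.0 and 34.1 CPM in Bd21-3 (log2FC -2.50), and its overlap came from the 5 split Bd21 libraries, which held 6.45 to 15.7 CPM against at most 2.21 CPM in the other 10. Its log2FC over the 4 ZTs without ZT24 was -2.80 with all libraries and -3.07 without the 5. For WRKY33 these were -2.21 and -2.41. F-box proteins choose the targets of other ubiquitin ligases. Of 263 tested F-box genes 1 was called (0.38%, against 0.635% of all genes). This was Bradi4g42430, not called with a pseudocount of 5, with 14.1, 16.3 and 21.7 CPM in Bd21 and 2.88, 3.71 and 5.75 CPM in Bd21-3 (log2FC 1.86, limma adjusted p = 5.55e-26). EBF1 (Bradi4g10715), an F-box protein that limits ethylene signaling and whose description the list did not catch, had 20.1, 25.0 and 30.7 CPM in Bd21 and 3.47, 6.27 and 9.14 CPM in Bd21-3 (log2FC 1.83), and it was named after its values were seen.

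Among the genes with the largest differences were a translation factor and a pair of proteases. Bradi1g06861, matched to an elongation factor Tu family protein that acts in translation, had 151, 319 and 406 CPM in Bd21 and 1.68, 2.89 and 9.39 CPM in Bd21-3 (log2FC 6.02, limma adjusted p = 2.52e-41). Bradi1g50760, an aspartyl protease, had 42.7, 102 and 177 CPM in Bd21 and 0, 0 and 1.48 CPM in Bd21-3 (log2FC 6.49, limma adjusted p = 6.65e-45). Bradi2g17926, a trypsin family protein with a PDZ domain, had 30.2, 39.1 and 47.9 CPM in Bd21 and 0, 0.115 and 0.342 CPM in Bd21-3 (log2FC 5.13). None of the 3 genes had libraries of the ecotypes that overlapped. The 124 tested heat shock protein genes, which code for chaperones, held 1 call (0.806%, against 0.635% of all genes), the DnaJ gene Bradi2g19010. It had 1.62, 14.1 and 137 CPM in Bd21 and 0.313, 1.85 and 11.98 CPM in Bd21-3 (log2FC 2.32, standard error 0.280, limma adjusted p = 2.90e-10), and here the libraries overlapped. At ZT16 its mean was 59.7 ± 67.6 CPM in Bd21 and 7.38 ± 4.55 CPM in Bd21-3 (SD, n = 3 each), and it was called at no single ZT and not when only NG groups were fitted. Of 290 ribosomal protein genes 1 was called (0.345%, against 0.635% of all genes), Bradi3g16620 of the L34e family, with 31.4, 61.6 and 117 CPM in Bd21 and 5.87, 12.9 and 27.9 CPM in Bd21-3 (log2FC 2.19).

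Genes of primary metabolism were called singly. NRT1.1 (Bradi3g33040), matched to a nitrate transporter and sensor, had 21.1, 39.6 and 68.1 CPM in Bd21 and 1.32, 2.53 and 5.37 CPM in Bd21-3, a log2FC of 3.39 (SE 0.182, adjusted p = 2.22e-25 by limma), and was the 1 gene called of 24 of nitrogen uptake and assimilation (4.17%, against 0.635% of all genes). SS3 (Bradi3g15027), a starch synthase that elongates glucan chains, had 22.0, 28.4 and 34.0 CPM in Bd21 and 2.73, 3.95 and 5.39 CPM in Bd21-3, a log2FC of 2.60, and was the 1 called of 31 genes of starch metabolism (3.23%). Both were called at all 5 ZTs with no overlap. In other lists of metabolism, 0 of 64 genes of glycolysis, 0 of 51 of phenylpropanoid and lignin synthesis, 0 of 28 of jasmonate synthesis and its JAZ repressors and 0 of 22 alternative oxidases and antioxidant enzymes were called by limma or by edgeR, and 13, 10, 7 and 11 of these genes, in the same order, had an unadjusted limma p under 0.05. The median log2FC of these 4 lists lay between -0.07 and 0.00.

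Genes on chromosome 3 matched to Arabidopsis genes of sterol synthesis were higher in Bd21, and were named after their values were seen. Whether they act in sterol synthesis was not tested. CYP51 enzymes demethylate sterol precursors, and cycloartenol synthase (CAS1) makes the first cyclic precursor of plant sterols. Bradi3g22802 (CAS1) had 19.8, 41.2 and 79.0 CPM in Bd21 and 2.16, 4.75 and 10.3 CPM in Bd21-3 (log2FC 2.78). The CYP51 gene Bradi3g22820 had 30.0, 62.0 and 97.2 CPM in Bd21 and 5.15, 9.06 and 17.9 CPM in Bd21-3 (log2FC 2.63). Further copies showed the same pattern without overlap, Bradi3g22840 with a log2FC of 2.27 and Bradi3g22850 with 1.72. These 4 genes stand among 5 consecutive tested genes, and reads that the CYP51 copies share could be split between them. A copy on chromosome 1, Bradi1g24340, had 4.31, 16.9 and 54.3 CPM in Bd21 and 1.16, 4.00 and 11.4 CPM in Bd21-3, which overlap (log2FC 1.77, limma adjusted p = 3.06e-10). That copy was called at no single ZT. In all 4 of 7 genes described as CYP51 were higher (against 0.456% of all genes), and with a pseudocount of 5 Bradi1g24340 and Bradi3g22850 were no longer called. The list of other cytochrome P450 genes, whose pattern did not take in CYP51, held 0 limma or edgeR calls among 132, with 36 at an unadjusted limma p under 0.05.

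Among genes lower in Bd21, several code for enzymes. PAO1 (Bradi3g20677), a polyamine oxidase, which breaks down polyamines and releases hydrogen peroxide, had the most CPM among them, with 41.8, 157 and 661 CPM in Bd21 and 264, 702 and 1857 CPM in Bd21-3. The libraries overlapped, and the log2FC was -2.37 (SE 0.213, adjusted p = 7.13e-15 by limma), or -2.59 over the 4 ZTs without ZT24 and -2.81 there without the 5 split libraries. CLH1 (Bradi2g00810), a chlorophyllase, had 0, 0.107 and 13.4 CPM in Bd21 and 22.5, 32.2 and 41.5 CPM in Bd21-3 (log2FC -3.85, limma adjusted p = 7.44e-21). Its Bd21 values were 5.44 to 13.4 CPM in the 5 split libraries and 0 to 0.641 CPM in the other 10, and the log2FC over the 4 ZTs without ZT24 was -4.41 with all libraries and -4.93 without the 5. GSTU18 (Bradi2g40790), a glutathione S-transferase that detoxifies reactive compounds, had 2.78, 11.2 and 19.1 CPM in Bd21 and 20.04, 41.0 and 107 CPM in Bd21-3 (log2FC -2.07), and was the 1 called of 35 genes of its family (2.86%, against 0.635% of all genes). Bradi3g18630, a WSD1-like acyltransferase of a family that makes wax esters, had 0.792, 1.83 and 3.59 CPM in Bd21 and 25.8, 34.1 and 45.5 CPM in Bd21-3 (log2FC -3.64). NRPC1 (Bradi3g00507), matched to the largest subunit of RNA polymerase III, had 1.40, 3.98 and 8.82 CPM in Bd21 and 28.3, 34.9 and 41.9 CPM in Bd21-3 (log2FC -2.90). The last 3 genes had no overlap.

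Genes without a description in Arabidopsis took a share of the calls above that of the table. They made up 42 of the 110 higher genes (38.2%) and 25 of the 43 lower genes (58.1%), against 26.0% of all tested genes, and the difference of these shares was not tested. Bradi2g41265 was close to absent in Bd21, with 0, 0 and 0.481 CPM, against 33.1, 38.1 and 48.7 CPM in Bd21-3, a log2FC of -5.23 (SE 0.0791, adjusted p = 3.46e-56 by limma). It showed no split among the Bd21 libraries, and it was named after its values were seen. Bradi5g10134 had 0.175, 0.942 and 53.4 CPM in Bd21 and 111, 181 and 223 CPM in Bd21-3, a log2FC of -5.09, which over the 4 ZTs without ZT24 was -5.76 with all libraries and -6.54 without the 5 split ones. Bradi5g02205 had 5.98, 10.95 and 22.2 CPM in Bd21 and 55.5, 101 and 156 CPM in Bd21-3 (log2FC -2.96). Bradi1g32428 had 16.6, 24.2 and 69.2 CPM in Bd21 and 73.5, 94.8 and 101 CPM in Bd21-3 (log2FC -1.70). Over the 4 ZTs without ZT24 its log2FC was -1.87 with all libraries and -2.06 without the 5 split ones. The range in Bd21 was widest for Bradi5g10134, where the 5 split libraries held 28.7 to 53.4 CPM and the other 10 held 0.175 to 1.76 CPM. Among single ZTs, Bradi5g10134 was called at ZT20 alone.

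The other genes with the largest differences had diverse descriptions. Bradi2g05102, a gene of the early-responsive-to-dehydration family, had 36.4, 46.7 and 56.4 CPM in Bd21 and 0, 0.0522 and 0.257 CPM in Bd21-3 (log2FC 5.42). Bradi5g10891, a P-loop nucleoside triphosphate hydrolase, had 34.7, 66.8 and 87.3 CPM in Bd21 and 0.209, 0.732 and 1.83 CPM in Bd21-3 (log2FC 5.22). Bradi1g78826, with ARM repeats, had 17.9, 33.5 and 57.5 CPM in Bd21 and 0, 0.296 and 0.958 CPM in Bd21-3 (log2FC 4.71). ARM repeats bind other proteins, whereas AP2/B3-like factors bind DNA. The AP2/B3-like gene Bradi1g14550 had 24.6, 33.5 and 45.9 CPM in Bd21 and 0.120, 0.395 and 0.645 CPM in Bd21-3 (log2FC 4.66). Bradi4g37870, an alpha/beta-hydrolase, was one of the most abundant called genes, with 168, 366 and 484 CPM in Bd21 and 59.3, 89.8 and 124 CPM in Bd21-3, and its difference was smaller (log2FC 1.88). Bradi1g16151, matched to a subunit of the GPI transamidase, which attaches lipid anchors to proteins, was lower, with 0, 0.438 and 26.9 CPM in Bd21 and 53.4, 72.1 and 113 CPM in Bd21-3 (log2FC -4.55, and over the 4 ZTs without ZT24 -5.17 with all libraries and -5.83 without the 5 split ones). In none of these genes did the libraries of the ecotypes overlap, and Bradi1g16151 was called at no single ZT.

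Some called genes whose functions are well known were picked after their values were seen. PTAC14 (Bradi3g44496), a protein of the transcription machinery of chloroplasts, had 11.7, 20.2 and 27.0 CPM in Bd21 and 0, 0.117 and 0.537 CPM in Bd21-3 (log2FC 4.11). Matched to proteins of vesicle traffic were a coatomer beta' subunit (Bradi4g22012, log2FC 3.33) and the syntaxin SYP71 (Bradi1g74930, 2.32). So were the SNARE proteins VTI11 (Bradi2g12660, 1.96) and SEC20 (Bradi2g33030, 1.88). Genes of vesicle traffic were not counted as a list, so the share called among them is not given. CLC-F (Bradi3g56670), a chloride channel, was lower, with 9.24, 12.05 and 25.5 CPM in Bd21 and 41.5, 56.2 and 69.1 CPM in Bd21-3 (log2FC -1.87). Of these genes SEC20 alone had libraries that overlapped.

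The calls were also made within each time of day. Of the 110 higher genes 66 were called at each of the 5 ZTs, and of the 43 lower genes 16. All 153 had the same sign at the 5 ZTs, which their choice by the average over these ZTs largely fixes. Of all genes, 0.668% were called at ZT0, 0.49% at ZT8, 0.639% at ZT16, 0.651% at ZT20 and 0.465% at ZT24. Genes higher in Bd21 numbered 124 at ZT0 (0.514%), 98 at ZT8 (0.407%), 114 at ZT16 (0.473%), 115 at ZT20 (0.477%) and 86 at ZT24 (0.357%). Genes lower in Bd21 numbered 37 (0.154%), 20 (0.083%), 40 (0.166%), 42 (0.174%) and 26 (0.108%) at the same ZTs. At ZT8 Bd21-3 had 2 libraries, and the 20 lower genes there were 12 without replicate 1 of Bd21-3. At ZT24 all 3 Bd21 libraries were among those that held Bradi5g04650, and the limits of fold and level were met by 326 genes, of which 112 passed the limma p, against 156 to 202 and 118 to 161 at the other ZTs. Over all ZTs, 153 genes were higher and 62 lower at 1 ZT or more. CRK19 (Bradi4g10450), the paralog named for this after its values were seen, was called at ZT24 alone, and its Bd21 libraries held 36.5 to 68.2 CPM where split and 6.87 to 11.97 CPM elsewhere, against 4.26 to 6.98 CPM in Bd21-3.

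A test of whether the ecotype difference changed between ZTs called 1 gene (0.00415%). This was ZEP, or ABA1 (Bradi5g11750), zeaxanthin epoxidase, which acts in the xanthophyll cycle and early in abscisic acid synthesis. At ZT16 it had 102 ± 12.4 CPM in Bd21 and 255 ± 56.8 CPM in Bd21-3 (SD, n = 3 each), and at ZT20 27.9 ± 3.80 CPM in Bd21 and 57.0 ± 9.84 CPM in Bd21-3 (SD, n = 3 each). At ZT0 it had 144 ± 10.5 CPM in Bd21 and 112 ± 7.83 CPM in Bd21-3 (SD, n = 3 each), and the differences at ZT0 and ZT24 did not pass the test (limma adjusted p = 0.0885 and 0.32). Both ecotypes had their highest level at ZT8. The log2FC were 0.37, -0.21, -1.29, -0.9997 and 0.19 from ZT0 to ZT24 (limma F test adjusted p = 3.42e-09), none of them called at a single ZT. Over 38 settings the adjusted p ran from 7.11e-11 to 4.09e-05, and the gene was not called with quantile normalization or when only NG groups were fitted. In the limma test 4140 genes had an unadjusted p under 0.05 and 185 an adjusted p under 0.05, and edgeR on the recovered reads gave 3573 and 50 and called the same gene.

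None of 26 clock genes was called by limma or edgeR in the average over the day (12 had an unadjusted limma p under 0.05), and their median log2FC was -0.13. GIGANTEA (GI, Bradi2g05226), an evening component of the clock, was called at ZT20, where it had 14.3 ± 1.98 CPM in Bd21 and 47.4 ± 11.8 CPM in Bd21-3 (SD, n = 3 each), a log2FC of -1.64. At ZT8, its peak, it had 488 ± 59.0 CPM in Bd21 (SD, n = 3) and 443 ± 46.8 CPM in Bd21-3 (SD, n = 2), which differed by less than the spread. No gene of the 56 of photosystems and antenna was called by limma in the average (23 had an unadjusted p under 0.05, and edgeR called 1), though their median log2FC of -0.27 was the lowest of the lists. A pair of antenna genes named CAB1, which bind chlorophyll and pass light energy to the photosystems, were called at ZT16 alone and named after their values were seen. Bradi1g12130 had 3.25 ± 0.455 CPM in Bd21 and 50.7 ± 4.45 CPM in Bd21-3 at ZT16 (SD, n = 3 each), a log2FC of -3.61, and 297 ± 25.3 CPM in Bd21 (SD, n = 3) and 688 ± 23.3 CPM in Bd21-3 (SD, n = 2) at ZT8. Its average log2FC of -1.496 lay just short of the limit and passed it over the 4 ZTs without ZT24 (-1.68), and over the same 4 ZTs without the 5 split libraries (-1.73). Bradi2g16271 had a log2FC of -2.11 at ZT16. Without replicate 2 of Bd21 at ZT16, the library high in plastid-encoded genes, the values at ZT16 were -3.63 for Bradi1g12130, -1.98 for Bradi2g16271, both still called, and -1.28 for ZEP (Bradi5g11750), whose interaction kept a limma adjusted p of 3.1e-08. In the time courses, GI, ZEP and Bradi1g12130 had their highest mean at ZT8 in both ecotypes and their called or largest difference at ZT16 or ZT20.

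**Figure D3:**
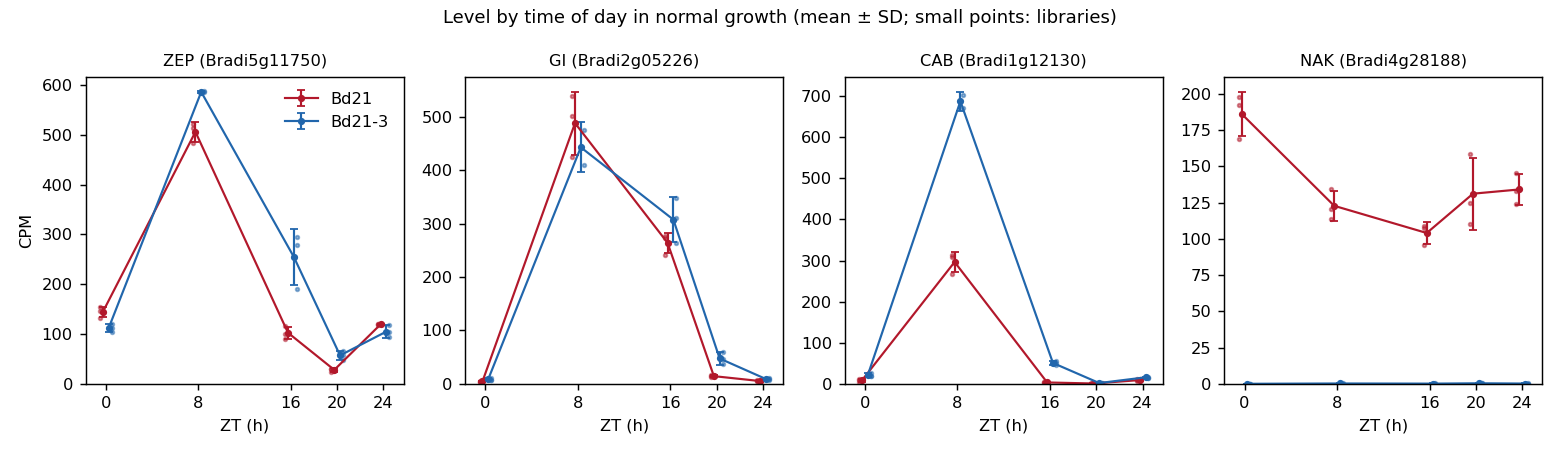
Level by time of day in NG for selected genes, in CPM on the y axis against ZT in h on the x axis, as mean ± SD with small points for libraries, Bd21 and Bd21-3 in separate colours. ZEP (Bradi5g11750) stands at 102 CPM in Bd21 and 255 CPM in Bd21-3 at ZT16 and has its highest mean at ZT8 in both, GI and the antenna gene Bradi1g12130 peak at ZT8 too, and NAK stays at 95.4 to 198 CPM in Bd21 and under 1 CPM in Bd21-3.

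Of the genes that the study names for differing between ecotypes, NRT1.1 was called in NG as given above, and 12 others, those fixed by identifier or symbol, were not DEGs in NG. Further genes it names were not looked up here. Metallothionein 3 (Bradi2g06220), a protein that binds metals, had 757, 1165 and 1484 CPM in Bd21 and 806, 1252 and 1883 CPM in Bd21-3 (log2FC -0.22, and -3.03 in S). Bradi1g16490, a clock gene that the annotation matches to PRR7 and the study treats as PRR3, had 0.959, 4.62 and 35.4 CPM in Bd21 and 0.967, 3.49 and 36.9 CPM in Bd21-3 (log2FC 0.09, and -1.07 in S). The libraries of the ecotypes overlapped in each of these genes. Hemoglobin 1, which scavenges nitric oxide at low oxygen, was represented by Bradi1g69320 (log2FC -1.14) and Bradi2g19690 (-0.47). Bradi1g69320 averaged 1.92 CPM in Bd21 and 5.61 CPM in Bd21-3 (limma adjusted p = 2.64e-05), which met none of the limits of a call. It was called in S, with a log2FC of -1.76. The ATP synthase inhibitor Bradi3g44950 had -0.14, and the clock-related RVE1 genes had -0.36 (Bradi3g51960) and 0.08 (Bradi5g19380). Bradi1g68957 had -0.71 (98.7 CPM in Bd21 and 163 CPM in Bd21-3, limma adjusted p = 2.95e-12), short of the fold limit alone. Its log2FC was -1.03 in LL and -1.91 in S, and it was called in S alone. Bradi2g62315 had -0.01 in NG, and -1.79 in S, where it was called. The alternative oxidases AOX1A had average log2FC of 0.46 (Bradi3g52505), -0.49 (Bradi5g20540) and 0.08 (Bradi5g20557), which moved with ZT24 to 0.14, -0.86 and -0.23 over the other 4 ZTs, and to 0.16, -0.94 and -0.27 there without the 5 split libraries. Bradi5g20540 had -1.62 at ZT0 and 0.97 at ZT24, and Bradi3g52505 had 1.76 at ZT24 (limma adjusted p = 0.000728), none of them called. In S, Bradi3g52505 had 1.60 and Bradi5g20557 had 1.51, both called, and Bradi5g20540 had 1.39, not called.

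The differences of NG were set beside those in LL and S, which come from other libraries of the same ecotypes. In LL 0.763% of genes were called, 129 higher (0.535%) and 55 lower (0.228%) in Bd21, and in S 0.95%, 166 higher (0.689%) and 63 lower (0.261%). Of the 110 genes higher in NG, 99 were called in LL (90% of the NG genes and 76.7% of the LL genes) and 86 in S (78.2% of the NG genes and 51.8% of the S genes), and 82 were called in all 3. Of the 43 lower genes, 39 were called in LL (90.7% of the NG genes and 70.9% of the LL genes) and 24 in S (55.8% of the NG genes and 38.1% of the S genes). None was called in the other direction. The contrast of the ecotype difference in NG minus that in LL called 1 gene (0.00415%), and that of NG minus S called 69 (0.286%), of which 34 were positive and 35 negative. Of these 69 genes, 8 were among the higher and 3 among the lower genes of NG.

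**Figure D4:**
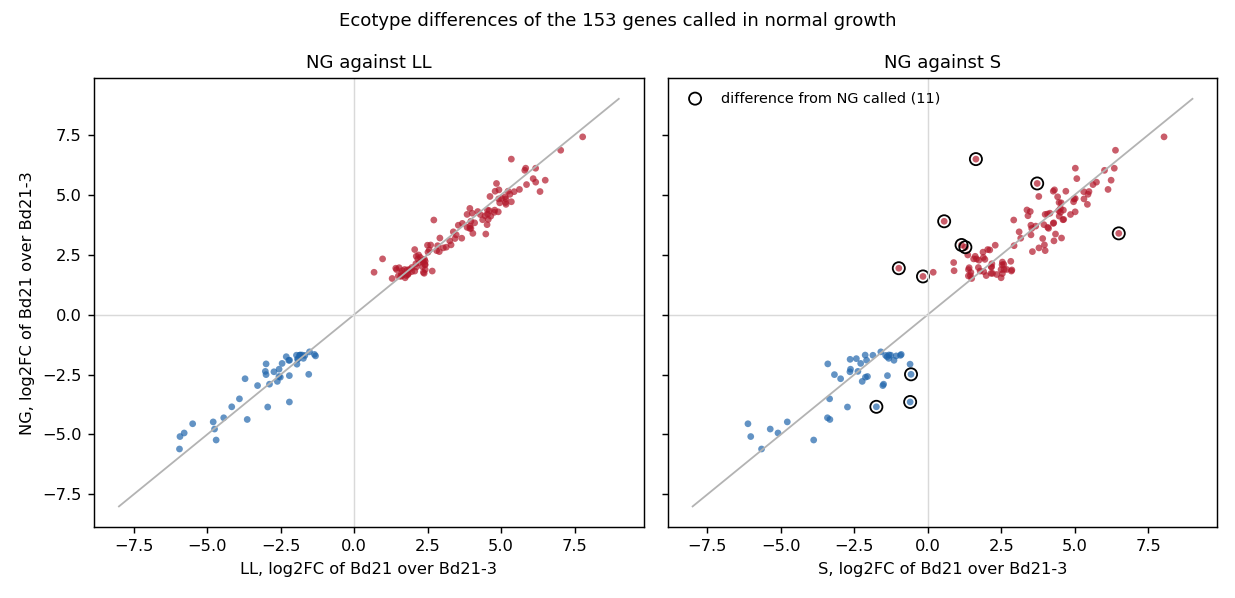
log2FC of Bd21 over Bd21-3 in NG on the y axis against that in LL (left panel) and in S (right panel) on the x axis, for the 153 genes called in NG; circles mark genes whose difference from NG was itself called. Most genes lie near the diagonal line of equal difference, 11 genes are circled in the panel of S and 0 in that of LL, and Bradi1g50760 lies off it in the panel of S, with 6.49 in NG and 1.63 in S.

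NRT1.1 differed more under submergence than in NG, with a log2FC of 3.39 in NG, 4.04 in LL and 6.49 in S, and the contrast of NG minus S was -3.11 (limma adjusted p = 1.16e-15). For other genes the log2FC was smaller in S. In the first 2 of these the levels in S were low, so the added 1 CPM weighs on the log2FC. The aspartyl protease Bradi1g50760 had 6.49 in NG and 1.63 in S (NG minus S 4.85, limma adjusted p = 8.07e-28), and its mean in S was 3.68 CPM in Bd21 and 0.0862 CPM in Bd21-3. The LRR gene Bradi3g48800 had 3.89 in NG and 0.56 in S (NG minus S 3.34, limma adjusted p = 2.92e-21), with means in S of 3.06 CPM in Bd21 and 0.986 CPM in Bd21-3. The WSD1-like gene Bradi3g18630, among the lower genes, had 9.14 CPM in Bd21 and 14.1 CPM in Bd21-3 in S, with log2FC of -3.64 in NG and -0.60 in S (NG minus S -3.04, limma adjusted p = 5.29e-25). Some other large differences of NG were those of Bradi3g48790, NAK, CRK41 and the NB-ARC gene Bradi2g39648. These genes had log2FC of 7.77, 7.02, 6.50 and -5.94 in LL and of 8.03, 6.38, 6.23 and -5.66 in S.

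Along the chromosomes, some called genes stood near each other. By chromosome, 0.386% of tested genes were called on chromosome 1, 0.549% on 2, 0.665% on 3, 1.096% on 4 and 0.739% on 5. Of the 153 called genes, 55 (35.9%) had another called gene within 5 tested genes, which made 22 groups. The same share over all tested genes was not counted, and grouping was not tested. Of 486 windows of 50 consecutive tested genes, 383 held no call and 11 held 3 or more, with 41 calls between them. The windows with 5 calls reach from Bradi2g39610 to Bradi2g40110, from Bradi4g09417 to Bradi4g09976, where CRK41, WRKY33 and Bradi4g09587 lie, and from Bradi4g10453 to Bradi4g11204. In some groups all members differed in the same direction, as with the genes matched to CAS1 and CYP51 and the LRR genes Bradi3g48760 to Bradi3g48800. The same held for the lectin kinases with Bradi4g02196 (log2FC -2.61) between them. In others, such as Bradi4g10560 to Bradi4g10655, higher and lower genes stood side by side.

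The split among the Bd21 libraries took in more genes than Bradi5g04650. In 33 genes the 5 libraries were all over 2 times the other 10 after 0.5 CPM was added, and in 0 genes the other way round. Of these, 19 were over 1 CPM in at least 1 Bd21-3 library of NG, and 14 were over 1 CPM in none. The 19 include genes with a median under 1 CPM in Bd21-3, such as Bradi3g23380 (0.406 CPM). The split genes included 5 of the 43 genes lower in Bd21 (CRK34, Bradi5g10134, Bradi1g16151, CLH1 and Bradi3g60950) and 0 of the 110 higher ones. In 11 of the 43 lower genes all 5 libraries lay above all 10, and in 8 of the 110 higher genes all 5 lay below all 10. How many of all tested genes separate in this way was not counted, so these counts are not read as particular to called genes. All 3 Bd21 libraries at ZT24 are among the 5, so the split and the time of day overlap. Bradi1g58857 and the helicase Bradi3g06450, which is matched to MOM, were among those at or under 1 CPM in Bd21-3, with 9.59 to 25.1 CPM and 7.03 to 17.4 CPM in the 5 libraries and at most 0.596 and 0.199 CPM in the other 10. The gene Bradi5g04650 was over 5 CPM in 6 of 29 Bd21 libraries of LL and S and in 0 libraries of Bd21-3. What made these libraries differ was not tested.

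**Figure D5:**
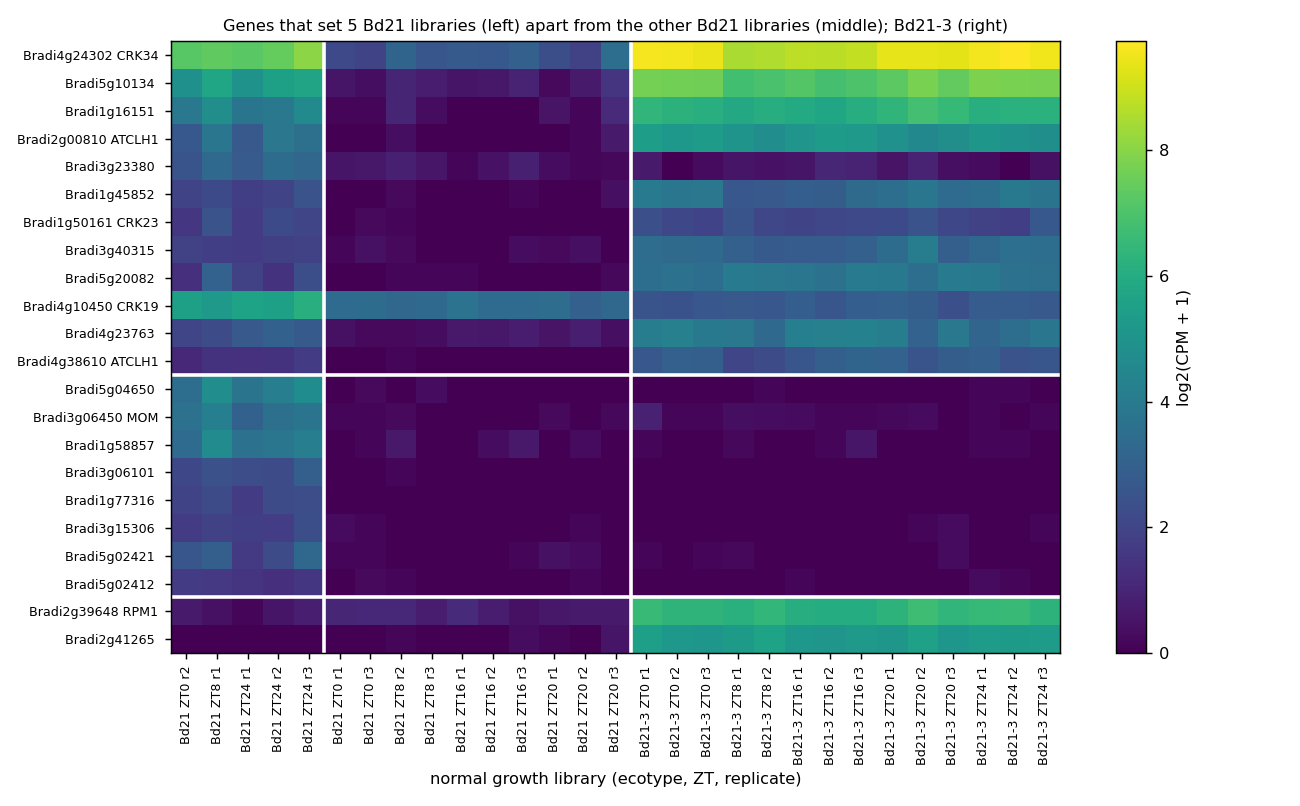
log2(CPM + 1) as colour for the genes that set 5 Bd21 libraries apart, with genes down the y axis and NG libraries along the x axis, the 5 Bd21 libraries at the left, the other 10 Bd21 libraries in the middle and the 14 Bd21-3 libraries at the right. CRK34 is at 148 to 264 CPM in the left block, 2.79 to 10.6 CPM in the middle and 358 to 852 CPM at the right, while Bradi5g04650 is over 0.244 CPM in the left block only.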

How the data were processed

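RNA from aboveground tissue was sequenced from unstranded libraries, and replicates were separate pools of plants. Per the labels and methods, the authors used HISAT2 2.1.0 for alignment to the Bd21 genome (Bdistachyon_314_v3.0), SAMtools 1.12, HTSeq for counting and edgeR for normalization. The deposited values are a signal, namely read counts that the authors divided by an effective library size. Columns summed to between 843958 and 1243716, whereas plain CPM, which the plan had assumed, would sum alike. Dividing each value by that of 1 read gave whole numbers within 0.001, and so 3896851 to 16044727 reads per library. In NG 1 read was worth 0.0712 to 0.1603 CPM, so values near 1 CPM rest on few reads. The authors' log2 fold changes and adjusted p-values and means in the same table were not used. No replicate column was left unused (0 of 89).

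The trend method of limma (version 3.58.1, R 4.3.3) was applied to log2(CPM + 1), with 1 term per group over 30 groups and 88 libraries, and p was adjusted over 24103 genes. All groups shared 1 estimate of the spread, so a p does not measure the spread of the NG groups alone. Alternatives were edgeR 4.0.16 (quasi-likelihood, TMM) on the recovered reads, pseudocounts of 0.25 and 5, no filter and one at 15 CPM, quantile normalization, a replicate block, NG groups alone, a lower limit of -2, an adjusted p under 0.05, no ZT8, the left-out library included, each library left out and, chosen after seeing the data, the 5 split libraries left out and the average over 4 ZTs without ZT24. The fit was tested on simulated data. Python 3.11.15, pandas 2.3.3 and numpy 2.4.6 served for tables.

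The genes and lists were chosen with earlier results of these data known. Named are, in each direction, the 12 called genes with the largest log2FC and a description, the 5 with the highest mean CPM, up to 3 called members of each of 33 gene lists, genes called in the interaction, clock genes called at any ZT, genes at 0 in 1 ecotype and genes the study names. Others are said to be named after their values were seen. Besides the lists in the text, photoreceptors, flowering time, core hypoxia genes, UDP-glycosyltransferases, class III peroxidases, germins, metallothioneins, aquaporins, histones, transposon-related genes and plastid-encoded and mitochondrion-encoded genes held 0 calls in the average by limma or edgeR, with 1 to 36 genes in each list at an unadjusted limma p under 0.05. No identifier matched the reference table of RefSeq symbols (0 of 24467). The text gives values for only a part of the 153 called genes.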

Additional observations from a re-analysis of the deposited data

Results flagged for a closer look

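Several ecotype differences themselves differed between times or treatments by the limma test of that difference. The ecotype difference of ZEP (Bradi5g11750) changed between ZTs of NG (limma F test adjusted p = 3.42e-09). Bradi1g50670, without a description, was the gene whose ecotype difference in NG was called against that in LL, with 2.74 in NG and 5.21 in LL (NG minus LL -2.47). Its mean was 6.74 CPM in Bd21 and 0.0496 CPM in Bd21-3 in NG, and 44.5 CPM in Bd21 and 0.0800 CPM in Bd21-3 in LL. With Bd21-3 at or near 0 in both, the contrast follows the level in Bd21.

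Between NG and S, 69 genes were called for a changed ecotype difference. Positive values of NG minus S were 4.85 for the aspartyl protease Bradi1g50760, 4.48 for Bradi4g10500, matched to the receptor-like kinase CRR3, 3.34 for the LRR gene Bradi3g48800, 2.92 for Bradi2g58350, 2.81 for metallothionein 3 (Bradi2g06220), 1.78 for Bradi2g62315, 1.76 for Bradi4g24843, 1.76 for the helicase Bradi5g20076, 1.75 for Bradi2g40476 and 1.53 for CRK6 (Bradi4g10560). Negative values were -3.11 for NRT1.1 (Bradi3g33040), -3.04 for the WSD1-like gene Bradi3g18630, -2.49 for Bradi4g10470, also matched to CRR3, -2.10 for CLH1 (Bradi2g00810), -1.92 for Bradi3g18622 and -1.89 for AOX1A (Bradi5g20540). The paralogs matched to CRR3 differed in opposite directions. Bradi4g10500 had log2FC of -2.30 in NG and -6.78 in S, and Bradi4g10470 had 1.88 in NG and 4.37 in S, with neither called in NG. Where 1 ecotype stood near 0 CPM, the contrast follows the level of the other on the scale of log2(CPM + 1). Bradi2g40476 had 48.8 CPM in NG and 14.7 CPM in S in Bd21, with Bd21-3 at 0.122 and 0.0969 CPM. Bradi4g10470 had 2.88 and 22.4 CPM in Bd21, with Bd21-3 at 0.0229 and 0.0265 CPM. CLH1 averaged 3.31 CPM in Bd21 and 32.3 CPM in Bd21-3 in NG, and 0.0639 and 3.70 CPM in S. The added 1 CPM thus weighs on its contrast. Genes here that no rule for names takes in were chosen after their values were seen.

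The library left out of all comparisons held a signal that the other NG libraries of Bd21-3 lacked. Genes marking Bd21 stood there at 19.8% of their level in Bd21, against at most 0.662% in the other 14.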

How the results depend on the processing

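No called result changed direction under the alternatives run. In NG averaged over ZTs, 107 to 115 genes were higher and 42 to 44 lower in Bd21 without 1 library, 88 and 31 with a pseudocount of 5, 114 and 46 with edgeR, and 28 were lower with a limit of -2. Of 50 named called genes 0 lost the call without 1 library. With a pseudocount of 5, 6 lost it (Bradi1g24340, Bradi2g58350, Bradi3g22850, Bradi4g10590, Bradi4g24843 and Bradi4g42430), and the DnaJ gene Bradi2g19010 lost it with only NG groups in the fit (limma adjusted p = 3.2e-05). The interaction between ecotype and ZT called 8 genes with a pseudocount of 5, 0 with quantile normalization, 0 with only NG groups in the fit and 1 to 2 without 1 library (2 without replicate 1 of Bd21 at ZT8 or replicate 2 of Bd21-3 at ZT16). At single ZTs without 1 library, genes higher in Bd21 numbered 115 to 126 (ZT0), 86 to 104 (ZT8), 106 to 115 (ZT16), 107 to 115 (ZT20) and 80 to 87 (ZT24), and lower ones 29 to 40, 12 to 24, 28 to 44, 35 to 43 and 21 to 26 (lowest at ZT8 without replicate 1 of Bd21-3). NG minus LL called 2 genes with edgeR. Genes at 0 numbered 18 in Bd21-3 and 1 in Bd21 with up to 3 reads per library, and 0 in Bd21-3 with the left-out library. The causes were not tested.

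Replicate numbers were not treated as pairs in the main fit. Deviations of libraries with the same number in a ZT correlated at -0.443 to 0.376 (14 pairs), against -0.372 to 0.522 for other numbers (28 pairs). Same-number pairs had 0.376, 0.0349 and 0.359 at ZT0 and -0.443, -0.210 and 0.140 at ZT20. These values cannot decide whether numbers pair libraries, since deviations from a group mean offset each other. With the number as a block, 110 genes were higher and 43 lower. At 0.0712 to 0.1603 CPM a read, levels under 1 CPM rest on few reads, and differences among them were not read.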
